A study of Mus musculus with 12 samples.

Results

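The comparison described here sets a mouse leukaemia line of B-cell precursors (acute lymphoblastic type) in which Mcl1 is deleted, called TKO, against its DKO control line in ordinary glucose-containing medium. It takes the 6 libraries labelled as regular medium, 3 of TKO and 3 of DKO, out of 12 libraries in the series. The other 6 come from the same lines in low glucose. They enter the filter on low counts, the scaling and the estimate of spread between libraries, and otherwise appear only where their values are named. The DKO line is labelled Bax-/-,Bak-/- and the TKO line Bax-/-,Bak-/-,Mcl-1-/-. By these labels all libraries come from cells without Bax and Bak1, and the loss of Mcl1 is the difference that the labels give. Both lines were kept in their medium for 24 hours before RNA was taken. The labels name 1 line of each genotype and no driver oncogene, so the deletion of Mcl1 and any other difference between the lines cannot be told apart. Whether the 3 libraries of each line came from separate cultures is not stated in the labels, so p-values measure only how these samples spread, and that spread may be technical.

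MCL-1 is an anti-apoptotic protein of the BCL-2 family. Such proteins sit at the outer mitochondrial membrane and hold in check BAX and BAK, which perforate it, and the BH3-only proteins, which trigger them. B-cell precursors and many leukaemias depend on MCL-1 for survival, and by their labels both lines compared here lack BAX and BAK. A form of MCL-1 inside mitochondria has also been linked to cristae structure and to the oxidation of fatty acids, the theme in the title of the series. The comparison asks which functions differed in RNA between the lines when glucose was not limiting.

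Levels are counts per 1000000 (CPM), scaled with TMM factors, which set the libraries to a common size. Differences are log2 fold changes of TKO over DKO from edgeR's quasi-likelihood test with Benjamini-Hochberg adjustment over 11988 genes, and a gene is called at an adjusted p under 0.05. Total counts ran from 45914440 to 56260867 in DKO and from 25908668 to 30874107 in TKO, and the ribosomal RNA precursor Rn45s took 2.79% to 4.62%. TKO replicate 2 stood apart, with a median absolute log2 deviation from its group mean of 0.0693, against 0.0348 and 0.0396 in the other TKO libraries and 0.0113 to 0.0213 in DKO. Of all genes tested, 61.7% were called, 28.3% higher in TKO (3396 genes) and 33.4% lower (3999 genes). Scaling by DESeq2 size factors instead turned that split to 3935 higher and 3524 lower, while the median log2 difference of all genes moved only from -0.01 to 0.03. The 3 and 3 libraries did not overlap for 69.3% of genes. A change of at least 2-fold was called for 17.8% of genes, 8.27% higher and 9.5% lower. It was concentrated in weakly expressed genes, with 45.9% of the 2997 genes with the lowest mean CPM (up to 6.05 CPM) but 3.1% of the 2997 with the highest (83.8 CPM and above). Markers of other cells were checked as lists: of 9 T-cell genes in the files only Lck passed the filter on low counts, a kinase that B-cell precursors also use and that is described below, and of 11 myeloid genes Lyz2, Itgam and Cd68 passed, at no more than 3.24 CPM in any library. Of erythroid and megakaryocytic genes 3 passed, all lower in TKO, but at a median level over both lines of only 0.284 CPM. Of stromal genes Vim and Cdh5 passed, both higher, Vim by 1.49-fold and Cdh5 at a mean of 0.320 CPM in TKO. The part of such cells in the results was not tested. In such bulk samples, fewer cells with a transcript and less of it per cell cannot be told apart.

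Mcl1 came first as a check of the labels. It lies at chr3:95658788-95663176 of the GRCm38 assembly and was measured at 237, 238 and 242 CPM in the DKO libraries and 0.475, 0.354 and 0.391 CPM in TKO. All 3 TKO libraries were near 0, and the difference was -9.18 on the log2 scale (adjusted p = 1.79e-17). The deleted effectors were still counted in both lines. Bax went from 17.1 ± 0.175 CPM in DKO to 6.17 ± 0.259 CPM in TKO (mean ± SD, n = 3, as for every such pair here), 2.78-fold lower in TKO. Bak1 went from 16.9 ± 1.40 CPM in DKO to 5.30 ± 0.713 CPM in TKO, 3.16-fold lower. Which exons were deleted is not given in the sources used here, so these gene-level counts check nothing about the deletions.

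No other anti-apoptotic member rose by more than a small step. Counted per transcript length, in transcripts per 1000000 (TPM), Mcl1 had been the most abundant anti-apoptotic transcript in DKO, at a mean of 127.3 TPM, against 40.41 TPM for Bcl2l1 (BCL-XL), 19.37 TPM for Bcl2l2 (BCL-W) and 5.632 TPM for Bcl2. In TKO, Bcl2l1 was the most abundant, at 41.24 TPM. Bcl2l1 was measured at 72.9, 67.7 and 70.6 CPM in the DKO libraries and 67.8, 70.8 and 68.0 CPM in TKO, overlapping ranges that the test did not separate (log2 difference -0.03, adjusted p = 0.526). Bcl2 was measured at 23.3, 23.1 and 23.5 CPM in the DKO libraries and 28.9, 24.3 and 29.3 CPM in TKO, higher in all 3 TKO libraries but only by 1.18-fold (log2 difference 0.24 ± 0.06 SE, adjusted p = 0.00429). Bcl2l2 fell, from 36.1 ± 1.04 CPM in DKO to 26.2 ± 2.24 CPM in TKO (log2 difference -0.46 ± 0.06 SE, adjusted p = 1.81e-05). The Bcl2a1 genes, which encode the remaining anti-apoptotic relative, had at most 2 counts in any library of either line.

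The BH3-only members moved in both directions. Bid, whose protein is cut by caspase-8 to engage mitochondria, rose from 46.8 ± 0.266 CPM in DKO to 56.7 ± 2.60 CPM in TKO (log2 difference 0.28 ± 0.05 SE, adjusted p = 1.98e-04). Pmaip1 (NOXA), which binds MCL-1 itself, fell, with libraries at 43.8, 43.9 and 46.0 CPM in the DKO libraries and 32.5, 29.7 and 34.7 CPM in TKO (log2 difference -0.46 ± 0.06 SE, adjusted p = 8.21e-06). No TKO library reached the lowest DKO library for Pmaip1, although its chromosome, 18, was mostly higher in TKO, as described at the end. Bad and Bmf were not called, at log2 differences of -0.11 and 0.01. The 2 rises among 6 members were Bcl2l11, at 0.88, and Bid, and the 2 falls were Bbc3, at -0.75, and Pmaip1. Bok, an effector-like relative, was 1.21-fold lower (log2 difference -0.28 ± 0.11 SE, adjusted p = 0.0372), a call that was lost under DESeq2 size factors.

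Downstream of mitochondria, Apaf1, the scaffold of the apoptosome, fell from 139.6, 144 and 144 CPM in DKO to 95.2, 81.1 and 93.1 CPM in TKO (log2 difference -0.67 ± 0.07 SE, adjusted p = 7.95e-07), with all TKO libraries below all DKO libraries. Casp9, the caspase that it activates, rose by 1.31-fold (adjusted p = 7.08e-05). Casp6, an executioner caspase, fell most in the list (log2 difference -1.48 ± 0.09 SE, adjusted p = 2.48e-09). Birc5 (survivin), which also serves the mitotic spindle, rose from 127 ± 1.79 CPM in DKO to 166 ± 8.15 CPM in TKO. In the death receptor and necroptosis list, 6 of 11 tested genes fell and 2 rose. The TRAIL receptor gene Tnfrsf10b went from 0.0926 ± 0.0527 CPM in DKO to 7.80 ± 0.252 CPM in TKO (log2 difference 6.31 ± 0.35 SE, adjusted p = 5.32e-13), whereas its ligand Tnfsf10 fell 3.84-fold. Mlkl, whose product breaches the plasma membrane in necroptosis, fell from 10.1, 10.4 and 9.54 CPM in DKO to 1.19, 1.10 and 0.945 CPM in TKO (log2 difference -3.21 ± 0.13 SE, adjusted p = 1.57e-12), and its activating kinase Ripk3 rose 1.40-fold. In the list of genes that control MCL-1 protein, 4 of 7 tested genes fell and 3 were not called, with a median of -0.12. The called share of 57.1% was below the 61.7% of all genes, and with DESeq2 size factors 3 fell. The ubiquitin ligase genes Fbxw7, Btrc and March5 were each lower in TKO, by 1.22- to 1.36-fold.

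**Figure D1:**
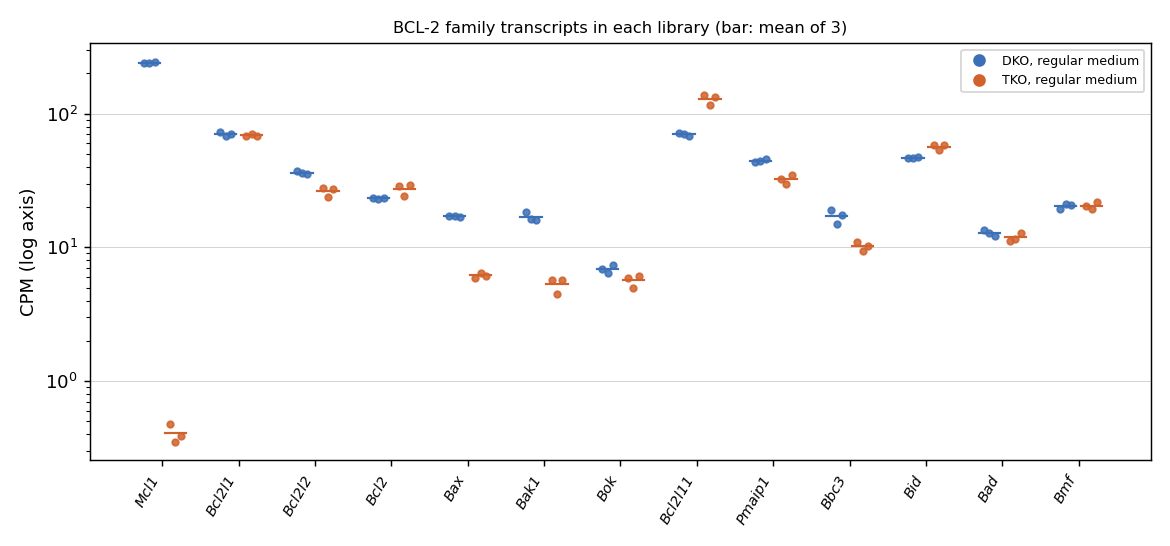
CPM of each BCL-2 family transcript in every regular-medium library, on a log axis, with points for libraries and bars for the mean of 3. The 3 TKO libraries sit below 0.5 CPM for Mcl1, while Bcl2l1 and Bmf overlap between the lines and Bcl2l11 is the member with the largest rise.

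Across functions, of the lists with at least 15 tested members, those with medians furthest below zero were the integrins, eicosanoid metabolism, the inflammasome, the interferon-stimulated genes, the unfolded protein response in the endoplasmic reticulum (ER), interferon receptors and their signalling, peroxisomes, and mitochondrial fatty acid oxidation. The lists furthest above zero were mitosis, the kinesins and myosins, V(D)J recombination, DNA repair and phospholipid synthesis. These are descriptions of counts beside the shares over all genes, with no test of a list.

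**Figure D2:**
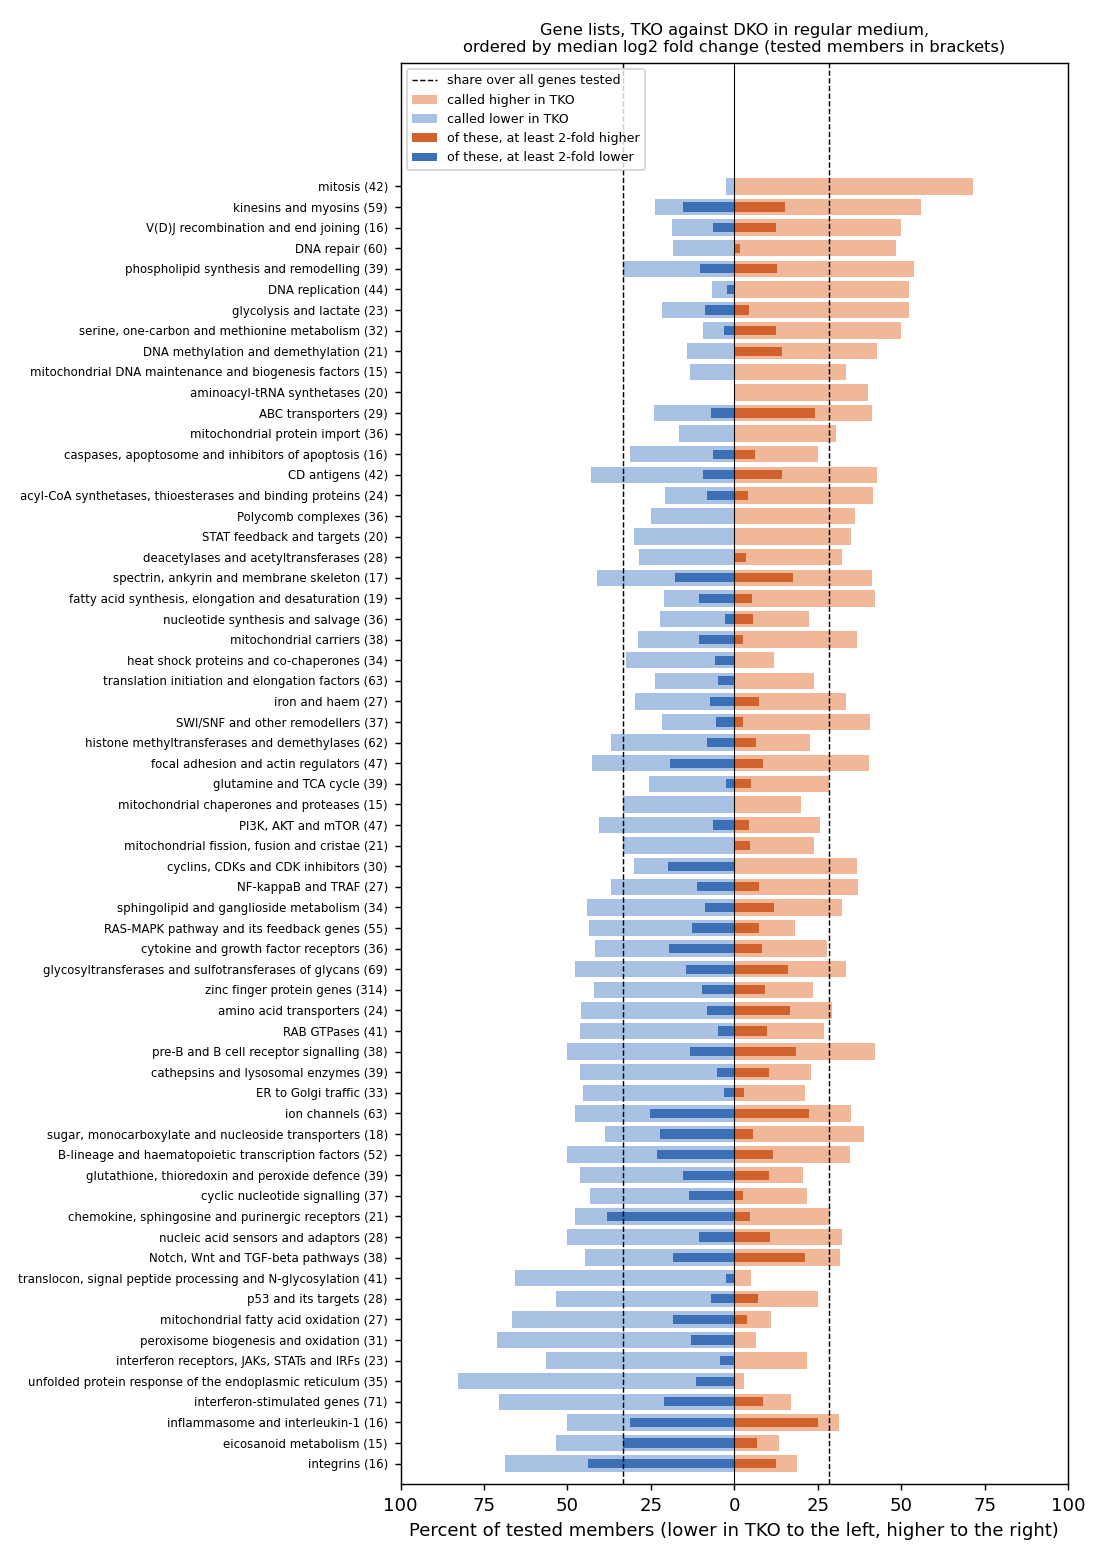
For 1 gene list per line, each with at least 15 tested members, the percent called higher (right) or lower (left) in TKO, with the darker bars for changes of at least 2-fold and dashed lines at the shares over all genes, 28.3% and 33.4%. The unfolded protein response, with 29 of 35 members lower, and mitosis, with 30 of 42 higher, lie far past those lines.

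Among lists with at least 15 tested members, the unfolded protein response had the largest share of members that fell. When unfolded protein builds up in the ER, the sensors IRE1 (Ern1), PERK (Eif2ak3) and ATF6 raise chaperones, folding enzymes and the machinery that removes misfolded protein, and in B cells the IRE1 target XBP1 also prepares cells for secretion. Of 35 members tested, 29 fell and 1 rose, with a median log2 difference of -0.41, and 4 of the falls were at least 2-fold. Without TKO replicate 2, 30 fell and 1 rose. Among all genes the median was -0.01.

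The 2 sensor genes Ern1 and Eif2ak3 both fell. Ern1 was measured at 34.4, 33.8 and 36.2 CPM in the DKO libraries and 6.07, 6.09 and 5.15 CPM in TKO (log2 difference -2.60 ± 0.08 SE, adjusted p = 3.99e-13). The 3 TKO libraries were far below all DKO libraries. Eif2ak3 fell only 1.19-fold, and Atf6 was not called (-0.07). The exception was Atf6b, a relative of ATF6, which rose from 53.2 ± 1.97 CPM in DKO to 68.6 ± 4.12 CPM in TKO (log2 difference 0.37 ± 0.06 SE, adjusted p = 4.57e-05). The transcription factor gene Xbp1 fell too (log2 difference -2.93).

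Chaperone transcripts fell at high expression. Hspa5 (BiP), the main ER chaperone and brake on all 3 sensors, was measured at 1240.3, 1298 and 1269.9 CPM in the DKO libraries and 788, 756 and 793 CPM in TKO (log2 difference -0.70 ± 0.05 SE, adjusted p = 1.37e-08). Its TKO libraries were close together and below every DKO library. Hsp90b1 (GRP94) was measured at 1725, 1751 and 1765 CPM in the DKO libraries and 1252, 1444 and 1252 CPM in TKO (log2 difference -0.41 ± 0.06 SE, adjusted p = 2.84e-05), and here TKO replicate 2 lay nearer to DKO than the others. Calr and Canx, the lectin chaperones that hold new glycoproteins, fell 1.29-fold and 1.21-fold. Pdia6, a disulfide isomerase, fell from 483 ± 9.94 CPM in DKO to 286 ± 7.72 CPM in TKO (log2 difference -0.76 ± 0.04 SE, adjusted p = 2.73e-10). Among co-chaperones, Dnajb9 fell 1.72-fold and Dnajc3 1.40-fold, while Dnajb11 was not called (-0.09).

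The genes of ER-associated degradation followed the same direction with 1 exception in the set named here. Herpud1, which assembles the degradation complex, fell from 169, 163 and 162 CPM in DKO to 91.2, 98.5 and 94.5 CPM in TKO (log2 difference -0.80 ± 0.05 SE, adjusted p = 1.77e-09), with no overlap. Sel1l, the adaptor of the ligase HRD1, fell 1.38-fold and Edem1, which trims mannose from misfolded glycoproteins, 1.22-fold. Derl3 was low in both lines, at 2.58 ± 0.240 CPM in the DKO line and 0.382 ± 0.0588 CPM in TKO, a fall of 6.65-fold. Syvn1, which encodes HRD1, was not called, at 227, 210.3 and 215 CPM in the DKO libraries and 227, 246 and 231 CPM in TKO (log2 difference 0.11, adjusted p = 0.182).

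The promoters of these genes are known for the ER stress response element, so the RefSeq promoter windows (250 bases before to 50 after the start, GRCm38.p6) were searched for its letters, CCAAT, then 9 bases of any kind, then CCACG, on both strands. The motif stood in 9 of the 29 list members with a window (31%), against 0.137% of all 27025 genes with one and 0.171% of the 9350 tested genes with one. Of the 9 genes, 8 were lower in TKO, and the ninth was Syvn1, in a list where 29 of 35 tested members were lower. The shorter form, ATTGG, 1 base of any kind and CCACG, stood in 2 members (6.9%, against 0.0444% of all genes), Herpud1, which fell, and Dnajb11, which was not called. No window held both motifs, so they do not overlap. The following windows, given on the strand of the gene, show the element in an abundant chaperone gene that fell, in a folding enzyme gene that fell, in the gene of a co-chaperone that fell and in the 1 holder that was not called, followed by the shorter motif in Herpud1. Capitals mark the motif, with 20 bases on either side.
Hspa5, chr2:34772005-34772063, plus strand: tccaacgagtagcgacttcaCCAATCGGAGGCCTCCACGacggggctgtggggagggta
Pdia6, chr12:17266471-17266529, plus strand: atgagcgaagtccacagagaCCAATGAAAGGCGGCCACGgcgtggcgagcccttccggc
Dnajc3, chr14:118937807-118937865, plus strand: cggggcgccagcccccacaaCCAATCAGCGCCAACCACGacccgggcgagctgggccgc
Syvn1, chr19:6046512-6046570, plus strand: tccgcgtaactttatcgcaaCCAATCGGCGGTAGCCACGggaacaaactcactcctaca
Herpud1, chr8:94386357-94386407, plus strand: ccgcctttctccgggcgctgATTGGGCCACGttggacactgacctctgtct
The capitals lie 65 to 47 bases before the start in Hspa5, 98 to 80 in Pdia6, 105 to 87 in Dnajc3, 44 to 26 in Syvn1 and 52 to 42 in Herpud1. A match of letters is a description of the window and says nothing of binding.

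Transcripts for the entry of new proteins into the ER were also mostly lower. In the list of the translocon, signal peptidase and N-glycosylation enzymes, 27 of 41 members fell and 2 rose, with a median log2 difference of -0.21. Spcs1, a signal peptidase subunit, was measured at 129, 125 and 129 CPM in the DKO libraries and 60.8, 55.0 and 59.2 CPM in TKO (log2 difference -1.13 ± 0.04 SE, adjusted p = 1.50e-11). Its partner Spcs2 fell 1.64-fold, and Alg5, which makes the glucose donor of N-glycans, 1.72-fold. The only 2 rises, Srp19 of the signal recognition particle (0.53) and the signal peptidase subunit Sec11c (0.51), are both on chromosome 18. Further along the pathway, 15 of 33 genes of ER-to-Golgi traffic fell and 7 rose. Lman2l, a cargo lectin, fell from 29.3 ± 0.0985 CPM in DKO to 14.5 ± 0.0671 CPM in TKO, while the giant Golgi tether gene Golgb1 rose 1.41-fold. Among cathepsins and lysosomal enzymes, 18 of 39 fell and 9 rose. Ctsb, a cysteine protease, fell from 312, 322 and 325 CPM in DKO to 102, 100.6 and 108 CPM in TKO (log2 difference -1.63 ± 0.04 SE, adjusted p = 5.06e-14), and Grn, the progranulin gene, fell 2.87-fold. Lgmn, another lysosomal protease, went the other way, from 12.6 ± 0.503 CPM in DKO to 29.3 ± 1.16 CPM in TKO (log2 difference 1.21 ± 0.06 SE, adjusted p = 1.13e-10).

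The interferon-stimulated genes made up the other large group that ran lower in TKO. Interferons act through JAK kinases and a complex of STAT proteins and IRF9, which binds a GAAA-type element and switches on antiviral genes. Of 71 members tested, 50 fell and 12 rose, with a median log2 difference of -0.44. At least 2-fold changes numbered 15 down and 6 up. The median level over its members was 24.4 CPM. The counts of 50 and 12 were the same without TKO replicate 2, and scaling by DESeq2 size factors gave 47 and 12.

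The receptors and signal carriers came first in that order. Ifnar1, a type I receptor chain, fell from 104 ± 0.883 CPM in DKO to 75.0 ± 2.15 CPM in TKO (log2 difference -0.48 ± 0.04 SE, adjusted p = 3.27e-08), while its partner Ifnar2 rose 1.17-fold. Stat2 was not called (-0.11), and its libraries overlapped between the lines. Irf9, a part of that complex, fell 1.39-fold, and Irf1 fell 1.56-fold. Irf7, the amplifier of the type I response, fell most among the regulators, from 27.3, 26.5 and 27.6 CPM in DKO to 8.30, 9.82 and 8.08 CPM in TKO (log2 difference -1.64 ± 0.08 SE, adjusted p = 1.21e-10). In all, 13 of 23 receptors, JAKs, STATs and IRFs fell and 5 rose, with a median of -0.39. The rises included Irf5, by 1.35-fold, and Jak1, by 1.19-fold.

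Among the responding genes that fell, Isg15, a ubiquitin-like modifier, was measured at 13.8, 12.3 and 13.9 CPM in the DKO libraries and 6.41, 4.32 and 7.36 CPM in TKO (log2 difference -1.13 ± 0.14 SE, adjusted p = 5.18e-06), and its removing enzyme Usp18 fell 2.55-fold. Rsad2 (viperin) was measured at 28.04, 32.1 and 30.1 CPM in the DKO libraries and 10.8, 11.5 and 10.4 CPM in TKO (log2 difference -1.47 ± 0.07 SE, adjusted p = 8.94e-11). Its groups did not overlap, and Cmpk2, a nucleotide kinase of the same response, fell 2.98-fold. Oasl1 fell from 5.26 ± 0.136 CPM in DKO to 1.16 ± 0.153 CPM in TKO and Oasl2 2.44-fold, whereas Oas2 and Oas3, which make the signal for RNase L, fell only 1.299- and 1.26-fold. Ifitm1, a membrane protein that blocks viral entry, was near 0 in TKO, at 16.4, 17.3 and 15.7 CPM in the DKO libraries and 0.237, 0.0393 and 0.228 CPM in TKO (log2 difference -6.53 ± 0.40 SE, adjusted p = 5.06e-13). Ifitm3 fell 2.96-fold. Among the immunity-related GTPases, Irgm1 fell from 142 ± 4.45 CPM in DKO to 83.5 ± 2.43 CPM in TKO and Igtp 1.67-fold. The abundant member Lgals9 (galectin-9) was measured at 824, 806 and 819 CPM in the DKO libraries and 322, 327 and 323 CPM in TKO (log2 difference -1.33 ± 0.04 SE, adjusted p = 4.47e-13), a 2.52-fold fall with no overlap.

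Among the members that rose, Slfn2, a schlafen gene needed for lymphocyte quiescence, was measured at 32.8, 30.9 and 33.4 CPM in the DKO libraries and 124, 119.9 and 122 CPM in TKO (log2 difference 1.91 ± 0.04 SE, adjusted p = 2.63e-14). Ifit1bl1, a neighbour and relative of Ifit1, rose from 8.96 ± 0.242 CPM in DKO to 30.0 ± 1.36 CPM in TKO, while Ifit1 itself fell 1.68-fold. Ifi27 rose 2.93-fold. Genes of these families lie in clusters of close copies, and how reads shared by copies were counted is not given in the sources used here, so values of single Ifit, Oas, Gbp, Irg and Slfn genes are uncertain.

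The letters GAAA, 2 bases of any kind and GAAA again, the core shared by interferon response elements, stood on either strand in the windows of 31 of 53 members with a promoter (58.5%), against 3.99% of all genes and 3.98% of tested genes. Of the 31 members, 21 were lower in TKO, beside 50 of 71 in the whole list. The windows below show 2 genes that fell and 1 that rose, with the motif or its reverse complement in capitals.
Isg15, chr4:156200861-156200910, minus strand: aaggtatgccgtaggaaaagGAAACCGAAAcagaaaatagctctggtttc
Rsad2, chr12:26456543-26456592, minus strand: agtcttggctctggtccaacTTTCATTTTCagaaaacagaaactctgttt
Ifit1bl1, chr19:34602043-34602092, minus strand: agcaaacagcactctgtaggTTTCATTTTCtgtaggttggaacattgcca
The Isg15 window holds 3 overlapping matches, of which the middle one is in capitals. Members with the letters were thus found among those that rose and those that fell.

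**Figure D3:**
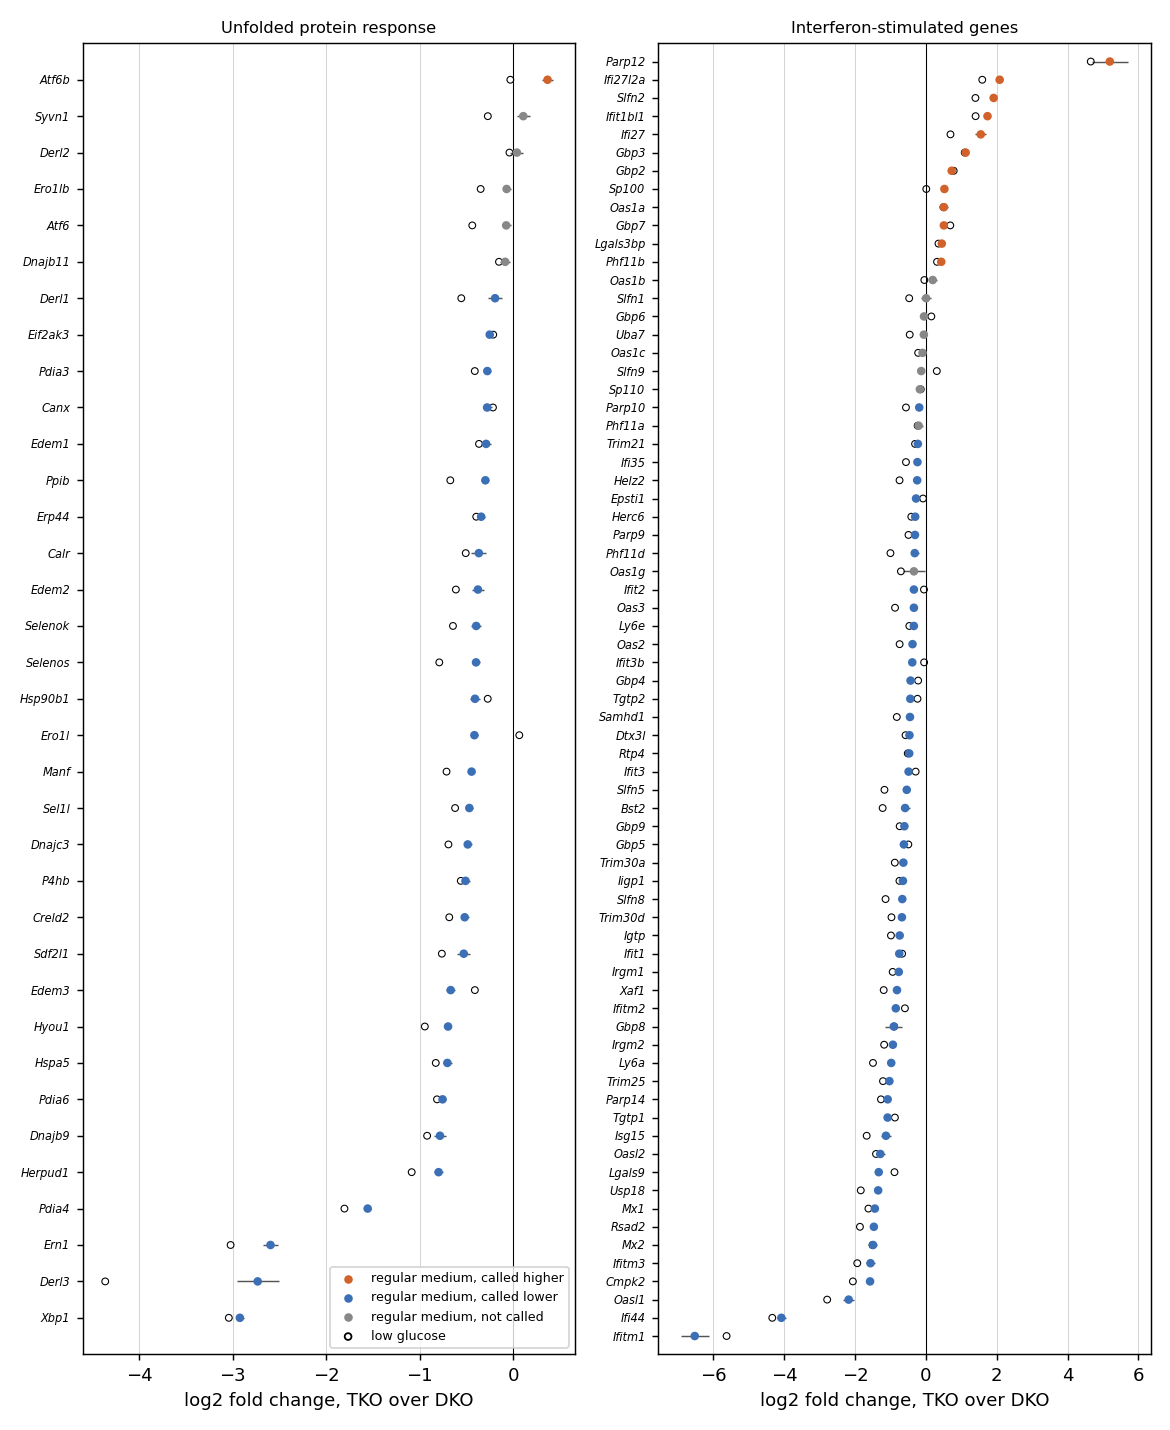
Log2 fold change of TKO over DKO for every tested member of the unfolded protein response list (left) and the interferon-stimulated list (right), filled points for regular medium with bars of 1 SE (drawn where under 2) and open points for low glucose. In regular medium 29 of 35 and 50 of 71 members are called lower, and Atf6b is the only member called higher on the left.

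Upstream of interferon, the sensors of foreign nucleic acid were mixed, with 14 of 28 lower and 9 higher. Ddx58 (RIG-I) was measured at 41.1, 41.5 and 41.8 CPM in the DKO libraries and 22.4, 20.9 and 21.3 CPM in TKO (log2 difference -0.94 ± 0.04 SE, adjusted p = 1.16e-10), and Dhx58, its helicase relative, fell 1.66-fold. Mavs, the mitochondrial adaptor that they share, rose 1.15-fold. Ifi204, a DNA sensor, fell from 12.01 ± 0.998 CPM in DKO to 3.42 ± 0.486 CPM in TKO. Mb21d1 (cGAS) was under 1.2 CPM in every library and higher in TKO (log2 difference 4.89 ± 0.97 SE, adjusted p = 4.92e-06), and Tmem173 (STING) fell 1.22-fold. The toll-like receptor chaperone gene Unc93b1 rose from 85.4 ± 3.83 CPM in DKO to 122.98 ± 1.99 CPM in TKO. Among 16 inflammasome genes, 8 fell and 5 rose, with most changes past 2-fold, in a list whose median level was only 8.41 CPM. Nlrp3 was measured at 37.7, 37.3 and 38.1 CPM in the DKO libraries and 1.19, 1.26 and 0.977 CPM in TKO (log2 difference -5.05 ± 0.12 SE, adjusted p = 1.59e-15), almost lost in TKO. Nlrc4 fell 4.47-fold, but Naip5, the partner that recognises flagellin for it, rose 2.22-fold. Nlrc3, a damper of STING signalling, rose from 4.66 ± 0.517 CPM in DKO to 31.5 ± 0.679 CPM in TKO (log2 difference 2.75 ± 0.08 SE, adjusted p = 3.58e-13).

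Most transcripts of mitochondrial fatty acid oxidation, the theme of the series, were lower in TKO: 18 of 27 genes fell and 3 rose, with a median of -0.31. Without TKO replicate 2, 17 fell and 3 rose, and with DESeq2 size factors 15 fell and 3 rose. The transcripts named for the import step were lower. Cpt2, which frees the acyl group inside the mitochondrion, was measured at 17.7, 16.9 and 17.9 CPM in the DKO libraries and 13.7, 14.1 and 13.1 CPM in TKO (log2 difference -0.36 ± 0.06 SE, adjusted p = 1.49e-04). Cpt1a, its partner at the outer membrane, differed by -1.22. For both genes all TKO libraries were below all DKO libraries.

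The dehydrogenases, which act by chain length, differed among themselves. Acadvl, for the longest chains, was measured at 51.2, 50.4 and 48.3 CPM in the DKO libraries and 39.3, 41.7 and 39.97 CPM in TKO (log2 difference -0.31 ± 0.04 SE, adjusted p = 3.04e-05). Acads, for the shortest, fell from 46.6 ± 1.26 CPM in DKO to 32.9 ± 5.18 CPM in TKO (log2 difference -0.50 ± 0.10 SE, adjusted p = 3.94e-04), and Acadm, for medium chains, differed by -1.11. Acadl was not called, at 104, 106 and 109 CPM in the DKO libraries and 104, 117 and 105 CPM in TKO (log2 difference 0.03), overlapping between the lines. The 2 subunits of the trifunctional protein, which carries out the last 3 steps on long chains, parted: Hadhb rose from 53.6 ± 2.80 CPM in DKO to 78.2 ± 6.56 CPM in TKO (log2 difference 0.54 ± 0.07 SE, adjusted p = 1.97e-05), while Hadha fell by 1.07-fold, a call lost under DESeq2 size factors. Echs1, the short-chain hydratase, fell 1.28-fold and Mlycd, which clears the CPT1 inhibitor malonyl-CoA, fell from 9.32, 8.88 and 7.58 CPM in DKO to 2.37, 2.51 and 2.41 CPM in TKO (log2 difference -1.82 ± 0.12 SE, adjusted p = 4.22e-09).

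Peroxisomes shorten very long chains, and their genes ran lower too: 22 of 31 fell and 2 rose, with a median of -0.32. Pex2, a peroxin of the import machinery, was measured at 48.1, 48.2 and 48.1 CPM in the DKO libraries and 23.8, 21.6 and 23.9 CPM in TKO (log2 difference -1.06 ± 0.09 SE, adjusted p = 8.20e-08). Decr2, the peroxisomal dienoyl-CoA reductase, fell from 14.4 ± 0.863 CPM in DKO to 4.18 ± 0.702 CPM in TKO (log2 difference -1.78 ± 0.09 SE, adjusted p = 3.11e-10). Abcd3, a peroxisomal transporter gene, rose 1.10-fold. Fatty acid synthesis showed no such lean, with 8 of 19 genes higher and 4 lower: Scd1, the main desaturase, fell from 1153 ± 6.73 CPM in DKO to 708 ± 29.5 CPM in TKO, while Scd2 rose 1.21-fold, Fasn 1.13-fold and Acaca 1.22-fold. Acsl3, an acyl-CoA synthetase of lipid droplets, rose from 61.7 ± 0.513 CPM in DKO to 96.3 ± 13.5 CPM in TKO, and the fatty acid transport gene Slc27a1 fell 3.23-fold.

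Among other lipid genes, phospholipid synthesis had 21 of 39 genes higher and 13 lower. Chpt1, of the last step of phosphatidylcholine synthesis, fell from 21.9, 20.5 and 21.1 CPM in DKO to 2.54, 2.99 and 2.15 CPM in TKO (log2 difference -3.06 ± 0.12 SE, adjusted p = 5.26e-12), while Selenoi, which makes phosphatidylethanolamine in a parallel reaction, rose from 38.8 ± 2.28 CPM in DKO to 83.2 ± 4.48 CPM in TKO (log2 difference 1.10 ± 0.08 SE, adjusted p = 1.18e-08). Mboat2, a lysophospholipid acyltransferase, had no count in any TKO library and about 11 CPM in DKO, at least 317-fold lower against 3 counts over the group. Eicosanoid genes fell in 8 of 15 cases and rose in 2. Ptgs1 (COX-1), which makes the prostaglandin precursor, was measured at 144, 138 and 136 CPM in the DKO libraries and 15.7, 16.2 and 19.2 CPM in TKO (log2 difference -3.03 ± 0.07 SE, adjusted p = 4.12e-14). The phospholipase that feeds it, Pla2g4a, stood at 51.3, 52.5 and 52.3 CPM in the DKO libraries and 0, 0.118 and 0 CPM in TKO, a count ratio of DKO to TKO of 1486 (95% counting interval 508 to 7209), and Alox5ap, which presents the substrate to 5-lipoxygenase, fell 7.23-fold. The phospholipase, cyclooxygenase and lipoxygenase helper genes named here were thus lower, and at least 2-fold changes in the list were 5 down and 1 up. In the sphingolipid list, 15 of 34 fell and 11 rose. The ceramidase gene Acer3 rose from 0.0477 ± 0.0244 CPM in DKO to 9.39 ± 0.949 CPM in TKO (log2 difference 7.54 ± 0.73 SE, adjusted p = 1.46e-11), and Ormdl3, which restrains sphingolipid synthesis, rose 4.14-fold.

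Of 13 lipid-sensing regulators and partners tested, 7 rose and 4 fell, with a median of 0.15. Rxra, a dimer partner of the PPAR and LXR receptors, fell far, at 21.2, 20.4 and 20.1 CPM in the DKO libraries and 1.49, 1.57 and 1.95 CPM in TKO (log2 difference -3.61 ± 0.10 SE, adjusted p = 3.82e-14). Ppard rose 1.39-fold, and Nr1h2 (LXR-beta) fell 1.16-fold. The co-repressor gene Nrip1 rose from 6.58 ± 0.268 CPM in DKO to 34.9 ± 3.56 CPM in TKO (log2 difference 2.41 ± 0.07 SE, adjusted p = 6.11e-13). Mlxip, whose product senses sugar phosphates, rose from 56.5 ± 1.61 CPM in DKO to 113 ± 2.06 CPM in TKO. Ppara was not among the genes tested.

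The rest of the mitochondrion showed smaller differences. Of 21 genes of fission, fusion and cristae, 5 rose and 7 fell, with a median of -0.02. Opa1, which shapes cristae, was not called, at 163, 162 and 161 CPM in the DKO libraries and 165, 178 and 170.2 CPM in TKO (log2 difference 0.08), although it was called higher under DESeq2 size factors, and neither was the fusion gene Mfn2 (-0.06). Chchd3, a subunit of the cristae junction complex, fell from 180.2, 176 and 184 CPM in DKO to 120, 124 and 120.5 CPM in TKO (log2 difference -0.57 ± 0.04 SE, adjusted p = 1.38e-08). Mtfp1, a fission gene, rose 2.02-fold. The calcium uniporter gene Mcu fell from 8.16 ± 0.282 CPM in DKO to 2.96 ± 0.164 CPM in TKO (log2 difference -1.46 ± 0.10 SE, adjusted p = 4.19e-09), and its regulator Micu2 and the sodium-calcium exchanger gene Slc8b1 were also lower. In the mitophagy list, 7 of 13 genes fell and 2 rose, with a median of -0.21. Bnip3, a receptor for the removal of mitochondria, rose from 24.0, 26.3 and 27.4 CPM in DKO to 99.4, 97.9 and 102 CPM in TKO (log2 difference 1.95 ± 0.06 SE, adjusted p = 7.80e-13), while its relative Bnip3l fell 1.31-fold and the kinase gene Pink1 1.42-fold. Protein import had 11 of 36 genes higher and 6 lower. Of the 11, 3 are on chromosome 18, Hspa9 (mortalin), which pulls precursors into the matrix, among them, at 784, 771 and 799 CPM in the DKO libraries and 1215, 1312 and 1246 CPM in TKO (log2 difference 0.68 ± 0.04 SE, adjusted p = 3.77e-09). Among carriers, Slc25a12, the aspartate-glutamate carrier of the malate shuttle, fell from 122, 116 and 123.2 CPM in DKO to 54.1, 51.6 and 55.3 CPM in TKO (log2 difference -1.16 ± 0.04 SE, adjusted p = 7.02e-12), and Slc25a15, the ornithine carrier, rose 1.77-fold.

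In 2 lists of central carbon metabolism more genes rose than fell. In glycolysis, 12 of 23 genes rose and 5 fell. Hk1, a hexokinase of the first step, fell 14.3-fold, one of the largest falls among genes at 10 CPM or more in both lines. It went from 281, 268 and 273 CPM in DKO to 18.1, 20.5 and 18.8 CPM in TKO (log2 difference -3.84 ± 0.08 SE, adjusted p = 2.77e-14), with no overlap. The rises were smaller: Eno3 rose 1.79-fold, Tigar, which diverts sugar phosphates, 1.40-fold and the abundant Pgam1 1.23-fold. The glucose transporter gene Slc2a1 rose from 24.2, 23.3 and 24.2 CPM in DKO to 36.4, 35.6 and 35.96 CPM in TKO (log2 difference 0.59 ± 0.05 SE, adjusted p = 1.25e-07). Pdk3, a brake on pyruvate dehydrogenase, fell from 53.4 ± 0.748 CPM in DKO to 32.5 ± 1.37 CPM in TKO. In serine, one-carbon and methionine metabolism, 16 of 32 rose and 3 fell, with a median of 0.12. Gcsh, of the glycine cleavage system, rose 1.35-fold, whereas Mtr, the methionine synthase, fell from 124, 122 and 131 CPM in DKO to 72.9, 78.0 and 72.7 CPM in TKO (log2 difference -0.75 ± 0.04 SE, adjusted p = 1.77e-09) and Ggh, which trims stored folates, from 9.68 ± 0.605 CPM in DKO to 0.140 ± 0.0655 CPM in TKO. The glutamine and TCA list was balanced, with 11 of 39 higher and 10 lower. Suclg2, the GTP-forming succinyl-CoA ligase subunit, rose from 53.6 ± 1.83 CPM in DKO to 114 ± 4.39 CPM in TKO (log2 difference 1.09 ± 0.04 SE, adjusted p = 2.52e-11), and Gpt2, which turns glutamate and pyruvate into alanine and 2-oxoglutarate, fell 3.12-fold. Among 24 amino acid transporter genes, 7 rose and 11 fell, and the neutral amino acid transporter genes Slc43a1 and Slc43a2 fell 2.29- and 1.96-fold. At least 2-fold changes in this list were 4 up, all at a mean under 1 CPM in both lines, and 2 down.

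Redox genes ran lower on balance, with 18 of 39 lower and 8 higher. Gsr, which regenerates glutathione, was measured at 39.9, 40.1 and 39.8 CPM in the DKO libraries and 75.8, 76.6 and 75.4 CPM in TKO (log2 difference 0.93 ± 0.04 SE, adjusted p = 1.53e-11), clearly higher in TKO, and Txnrd3 rose 2.05-fold. The transferases parted: Gstm1 rose 4.98-fold, while Gstt2 and Gstt3 fell 4.87- and 3.74-fold. Hmox1, the inducible haem oxygenase, fell 2.59-fold. In the iron list, Ftl1, the ferritin light chain, was measured at 417, 398 and 401 CPM in the DKO libraries and 46.2, 28.4 and 48.7 CPM in TKO (log2 difference -3.30 ± 0.17 SE, adjusted p = 7.31e-10). Ftl1 has close pseudogene copies and lies beside Bax, as described below, so its value is uncertain. Alad, an early haem enzyme, rose 2.50-fold.

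B-lineage genes changed in both directions. Of 14 pro-B and pre-B markers tested, 6 rose and 5 fell. The master regulators Ebf1 and Tcf3 were not called (-0.11 and 0.13), the latter being called higher under DESeq2 size factors. Pax5 was measured at 809, 809.9 and 814 CPM in the DKO libraries and 1319, 1579 and 1289.9 CPM in TKO (log2 difference 0.78 ± 0.08 SE, adjusted p = 9.70e-07), all 3 TKO libraries above DKO and replicate 2 the highest. Ikzf1 rose 1.38-fold and Spib 1.47-fold, while Myb fell 1.52-fold and Lef1 1.51-fold. In the list of B-lineage and blood transcription factors, 26 of 52 fell and 18 rose. Ets2 fell from 65.2, 64.9 and 64.1 CPM in DKO to 10.03, 11.04 and 9.90 CPM in TKO (log2 difference -2.65 ± 0.05 SE, adjusted p = 6.77e-15), and Nr4a1, an early gene of antigen receptor signalling, from 6.49 ± 0.258 CPM in DKO to 0.753 ± 0.175 CPM in TKO. Klf2, a gene of resting lymphocytes, rose from 0.925 ± 0.303 CPM in DKO to 7.18 ± 0.427 CPM in TKO (log2 difference 2.94 ± 0.19 SE, adjusted p = 1.79e-09). Gfi1, a repressor, had 1 count over the DKO group and 7.95 to 9.12 CPM in TKO, a count ratio of TKO to DKO of 1277 (95% counting interval 228 to 50492).

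The recombination machinery that builds receptor genes showed a split. Rag1 and Rag2, the recombinase, both rose: Rag1 was measured at 6.56, 6.85 and 6.87 CPM in the DKO libraries and 21.7, 23.3 and 23.9 CPM in TKO (log2 difference 1.76 ± 0.09 SE, adjusted p = 2.83e-10), and Rag2 at 1.94, 1.42 and 1.78 CPM in the DKO libraries and 17.8, 21.4 and 17.3 CPM in TKO (log2 difference 3.46 ± 0.14 SE, adjusted p = 5.67e-12). No DKO library reached a TKO library for either gene. Dntt, which adds bases at the joints, was far lower (log2 difference -4.07), and the end-joining genes Lig4 and Xrcc5 each fell, 1.45- and 1.46-fold. Of 16 genes of this list 8 rose and 3 fell. The surrogate light chain parts differed as well. Igll1 was measured at 738, 748 and 742 CPM in the DKO libraries and 431, 391 and 442 CPM in TKO (log2 difference -0.82 ± 0.05 SE, adjusted p = 5.82e-09), Vpreb1 fell 1.26-fold and Vpreb2 rose 1.13-fold, while Cd79a and Vpreb3 were not called (0.07 and -0.02).

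Signalling below the pre-B and B-cell receptors changed in 35 of 38 genes, 16 up and 19 down. Among the Src-family kinases, Blk fell from 200, 191 and 191 CPM in DKO to 75.0, 68.1 and 79.2 CPM in TKO (log2 difference -1.39 ± 0.06 SE, adjusted p = 3.11e-11) and Lck from 97.8, 94.2 and 100.2 CPM in DKO to 8.91, 9.19 and 9.02 CPM in TKO (log2 difference -3.43 ± 0.07 SE, adjusted p = 6.77e-15), whereas Lyn was not called (0.00). Syk, the next kinase, rose 1.47-fold, and its adaptor Blnk and the phospholipase Plcg2 fell 1.60- and 1.43-fold. Bank1, a scaffold, was measured at 8.32, 8.16 and 9.30 CPM in the DKO libraries and 68.5, 72.2 and 70.9 CPM in TKO (log2 difference 3.03 ± 0.06 SE, adjusted p = 4.86e-15). Rasgrp1, which loads RAS with GTP, rose from 2.26 ± 0.186 CPM in DKO to 66.9 ± 3.46 CPM in TKO (log2 difference 4.89 ± 0.07 SE, adjusted p = 2.11e-16). The surface markers of later B cells did not move together. Ms4a1 (CD20) rose from 0.0273 ± 0.0121 CPM in DKO to 7.98 ± 0.424 CPM in TKO and Cd22 from 121 ± 0.644 CPM in DKO to 279 ± 16.2 CPM in TKO, while Cr2, the complement receptor, fell 4.66-fold, Sdc1 (CD138) 2.39-fold and Cd40 2.35-fold, the last low in both lines. Of 11 mature B-cell and plasma-cell markers tested, 4 rose and 5 fell.

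Cytokine receptors and their pathways were also mixed. Il7r, the receptor chain for the growth factor of pre-B cells, fell only 1.11-fold, and Crlf2 rose 1.43-fold. Il2ra (CD25) was measured at 26.0, 24.8 and 25.6 CPM in the DKO libraries and 97.2, 112 and 102 CPM in TKO (log2 difference 2.03 ± 0.06 SE, adjusted p = 1.66e-12). Il4ra was measured at 77.5, 77.2 and 78.0 CPM in the DKO libraries and 11.1, 10.02 and 11.5 CPM in TKO (log2 difference -2.83 ± 0.05 SE, adjusted p = 3.04e-15), and Il6st, the shared chain of the interleukin-6 family, fell 11.6-fold. For each of these genes the groups were well apart. Bmpr1a, a receptor for bone morphogenetic proteins, rose from 10.7 ± 0.672 CPM in DKO to 89.4 ± 2.07 CPM in TKO, and Bmpr2, its partner, fell from 5.94 ± 0.0277 CPM in DKO to 0.760 ± 0.202 CPM in TKO. Of the STAT feedback genes, Socs2 and Socs3 fell 1.32- and 1.85-fold, Socs1 rose 1.79-fold and Cish was not called (0.12; called higher under DESeq2 size factors).

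In the RAS and MAPK list, 24 of 55 genes fell and 10 rose. Among transcripts known to follow ERK activity, Dusp6 was measured at 202, 192 and 196 CPM in the DKO libraries and 107, 111 and 109 CPM in TKO (log2 difference -0.85 ± 0.04 SE, adjusted p = 5.18e-11), and Etv5, Etv4, Spry2, Spry1, Dusp5 and Phlda1 fell by 1.22- to 3.19-fold. Dusp2 fell 1.33-fold. Spred1, Egr1 and Fos were not called (-0.04, 0.02 and 0.28), while Dusp4, Dusp1 and Jun rose 4.94-, 2.23- and 1.29-fold, Dusp4 and Dusp1 from low levels. Myc, a distal target, was not called, with libraries at 333, 321 and 322 CPM in the DKO libraries and 304, 396 and 295 CPM in TKO. The TKO range enclosed the DKO range, replicate 2 being the high one. Rasal2, a RAS GTPase activator that opposes the pathway, fell from 7.20 ± 0.237 CPM in DKO to 0.180 ± 0.155 CPM in TKO. In the PI3K list, 19 of 47 fell and 12 rose. Prkaa2, an AMPK catalytic subunit, fell from 77.5, 79.7 and 79.1 CPM in DKO to 23.9, 24.7 and 26.6 CPM in TKO (log2 difference -1.65 ± 0.06 SE, adjusted p = 5.42e-12). Ddit4, an inhibitor of mTORC1, fell 2.08-fold. In the NF-kappaB list, with 10 of 27 up and 10 down, Tnfaip3 (A20), the feedback brake, was measured at 25.9, 26.5 and 24.8 CPM in the DKO libraries and 2.75, 2.004 and 2.28 CPM in TKO (log2 difference -3.45 ± 0.11 SE, adjusted p = 4.37e-13), while Rel rose 1.76-fold. Among secreted factors, Tgfb3 was one of the largest falls, from 747, 727 and 738 CPM in DKO to 10.1, 12.02 and 11.04 CPM in TKO (log2 difference -6.06 ± 0.07 SE, adjusted p = 1.04e-16), and Smad3, which carries the signal of that family, rose 6.91-fold.

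Integrins, the adhesion receptors formed of an alpha and a beta chain, had the lowest median of the lists with at least 15 tested members: 11 of 16 fell and 3 rose, with a median of -0.93. At least 2-fold changes were 7 down and 2 up, in a list with a median level of 3.73 CPM, where 2-fold changes are common among all genes. The abundant members are shown here, several of them chosen after their values were seen. Itgal, the alpha chain of LFA-1, was measured at 191, 188 and 191 CPM in the DKO libraries and 3.42, 2.55 and 2.44 CPM in TKO (log2 difference -6.08 ± 0.09 SE, adjusted p = 1.04e-16). Its beta chain Itgb2 went the other way, from 40.8 ± 1.93 CPM in DKO to 55.7 ± 2.26 CPM in TKO (log2 difference 0.45 ± 0.05 SE, adjusted p = 5.95e-06). Itgb3, a chain of the vitronectin receptor, was measured at 57.0, 56.4 and 57.6 CPM in the DKO libraries and 0.305, 0.589 and 0.880 CPM in TKO (log2 difference -6.57 ± 0.25 SE, adjusted p = 2.55e-14), and its partner Itgav fell 1.94-fold. All TKO libraries were under 4 CPM for Itgal and under 1 CPM for Itgb3.

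The laminin receptor chain Itga6 was measured at 273, 275 and 279.9 CPM in the DKO libraries and 53.4, 53.01 and 55.8 CPM in TKO (log2 difference -2.35 ± 0.04 SE, adjusted p = 2.89e-15). Itga5, the fibronectin receptor chain, had no count in TKO against about 10 CPM in DKO, at least 292-fold lower against 3 counts over the group. The chains of VLA-4, the main integrin of B-cell precursors in the marrow, fell least: Itga4 was measured at 409.6, 427 and 404 CPM in the DKO libraries and 317, 382 and 318 CPM in TKO (log2 difference -0.29 ± 0.07 SE, adjusted p = 0.00199) and Itgb1 at 301, 308 and 303 CPM in the DKO libraries and 238, 249 and 235.7 CPM in TKO (log2 difference -0.34 ± 0.04 SE, adjusted p = 1.82e-06). Itgb7, the other partner of Itga4, rose but stayed near 1 CPM (log2 difference 2.08 ± 0.26 SE, adjusted p = 4.60e-06). Cd44, the hyaluronan receptor, was measured at 53.01, 52.8 and 53.1 CPM in the DKO libraries and 125, 129 and 122 CPM in TKO (log2 difference 1.24 ± 0.04 SE, adjusted p = 1.58e-12), and Cd53, a tetraspanin, rose 3.87-fold. Among the most abundant genes of all, Cd93, an adhesion receptor of early B cells, fell from 1359 ± 8.07 CPM in DKO to 526 ± 2.61 CPM in TKO (log2 difference -1.37 ± 0.03 SE, adjusted p = 1.34e-13). Adhesion receptors thus included both losses and gains, and among the integrin chains named here Itgb2 and Itgb7 rose.

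**Figure D4:**
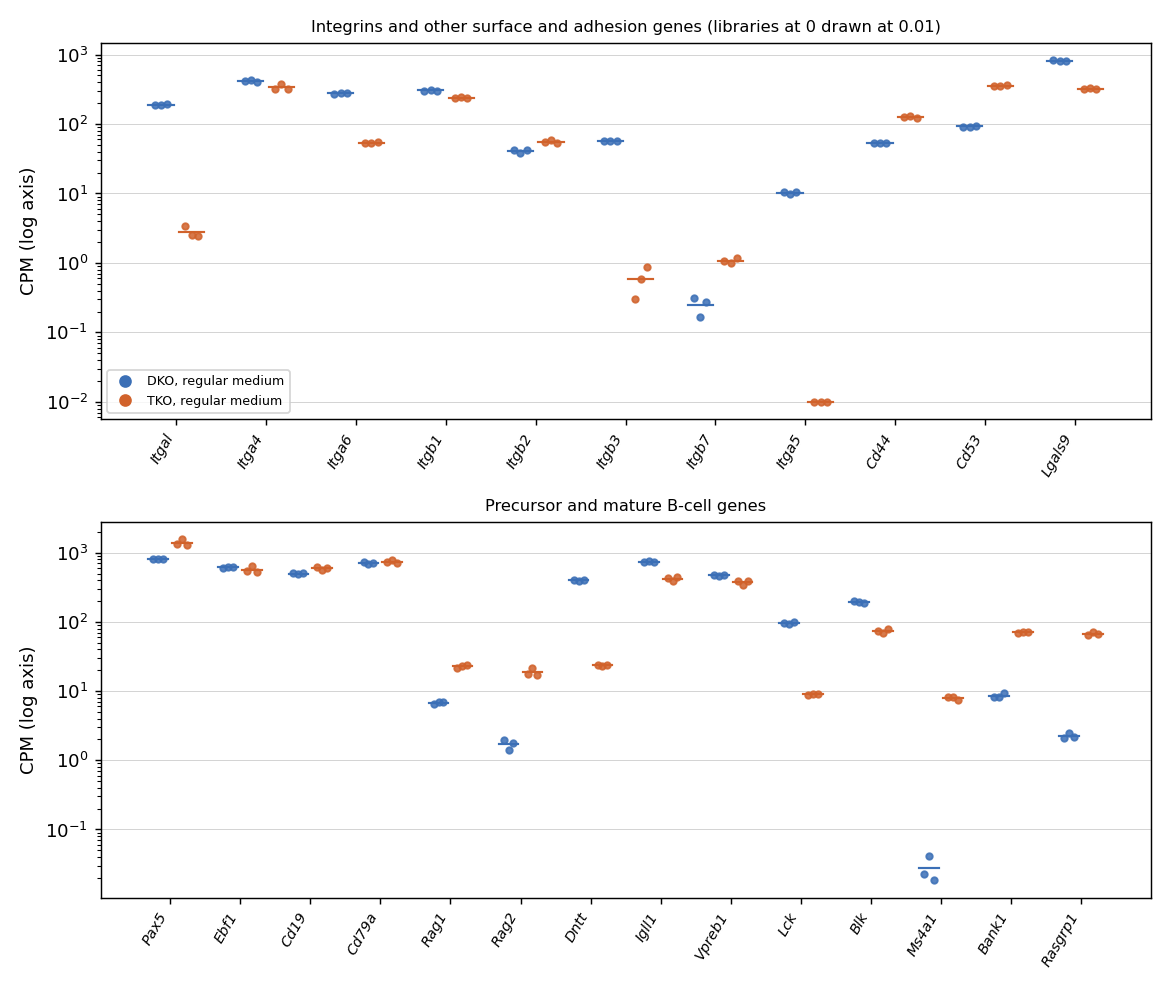
CPM in every regular-medium library on a log axis for surface and adhesion genes (top) and B-cell genes (bottom), with points for libraries, bars for the mean of 3 and libraries at 0 drawn at 0.01 CPM. Itgal, Itgb3 and Itga5 are far lower in TKO while Cd53 and Cd44 are higher, and below, Rag1, Rag2, Ms4a1 and Rasgrp1 are higher while Dntt, Lck and Blk are lower.

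Single genes of the cytoskeleton beneath the membrane showed near on-and-off differences, while their list was balanced, with 7 of 17 higher and 7 lower. Sptbn1, a beta-spectrin, was measured at 0.113, 0.0617 and 0.128 CPM in the DKO libraries and 293, 334 and 292 CPM in TKO (log2 difference 11.51 ± 0.38 SE, adjusted p = 1.02e-16), and Ank3, an ankyrin that links spectrin to membrane proteins, at 87.8, 92.2 and 89.9 CPM in the DKO libraries and 0.169, 0.196 and 0.228 CPM in TKO (log2 difference -8.80 ± 0.36 SE, adjusted p = 1.53e-15). Each was close to 0 in 1 line and among the well-expressed genes of the other. Actn1, an alpha-actinin, fell from 84.4 ± 1.16 CPM in DKO to 3.53 ± 0.373 CPM in TKO. Gsn, the actin-severing gelsolin, fell 19.7-fold. The kinesins and myosins leaned up, with 33 of 59 higher and 14 lower, and Kif21b was measured at 19.6, 18.6 and 20.2 CPM in the DKO libraries and 105, 118 and 108 CPM in TKO (log2 difference 2.50 ± 0.08 SE, adjusted p = 1.97e-12).

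Cell-cycle genes leaned up by small steps. In mitosis, 30 of 42 genes rose and 1 fell, with a median of 0.26 and no change of 2-fold. With DESeq2 size factors 35 rose and 1 fell. Without TKO replicate 2, 26 rose and 1 fell, and the median was 0.20. Ndc80, of the kinetochore, was measured at 75.7, 78.0 and 79.3 CPM in the DKO libraries and 108, 119.8 and 109.6 CPM in TKO (log2 difference 0.53 ± 0.05 SE, adjusted p = 7.49e-07). Cdc25a, the phosphatase that opens S phase, was the 1 fall, by 1.15-fold. DNA replication had 23 of 44 higher and 3 lower. Pcna, the polymerase clamp, was measured at 494, 495 and 509 CPM in the DKO libraries and 686, 597 and 689 CPM in TKO (log2 difference 0.40 ± 0.06 SE, adjusted p = 4.06e-05), and Orc5, of the origin complex, rose 1.94-fold. Pole2, a subunit of the leading-strand polymerase, was the main exception, at 163, 173 and 170.1 CPM in the DKO libraries and 51.6, 47.7 and 51.0 CPM in TKO (log2 difference -1.75 ± 0.04 SE, adjusted p = 1.06e-13), and lies beside other genes that fell, as described below.

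Of 30 cyclins, cyclin-dependent kinases and their inhibitors, 11 rose and 9 fell, and 6 of the falls were at least 2-fold. The called share was 66.7%, near the 61.7% of all genes. The share of at least 2-fold was 20%, all lower, against 17.8% of all genes either way and 9.5% lower. Ccnd1, the cyclin D1 gene, was measured at 189.6, 179.7 and 183 CPM in the DKO libraries and 15.1, 14.8 and 16.7 CPM in TKO (log2 difference -3.57 ± 0.05 SE, adjusted p = 4.89e-16), and its kinase Cdk6 fell from 335 ± 11.1 CPM in DKO to 144 ± 5.26 CPM in TKO (log2 difference -1.22 ± 0.04 SE, adjusted p = 1.76e-12). The inhibitor gene of that kinase, Cdkn2c (p18), fell too, 2.34-fold, whereas Cdkn1b (p27) was not called (0.05). E2f2 rose from 176 ± 4.99 CPM in DKO to 278 ± 6.25 CPM in TKO. In the p53 list, 15 of 28 fell and 7 rose. Trp53 itself was not called, at 220, 207 and 217 CPM in the DKO libraries and 218, 227 and 219 CPM in TKO, and its target and antagonist Mdm2 fell 1.33-fold and Trp53inp1 1.75-fold. DNA repair had 29 of 60 higher and 11 lower. Neil3, a glycosylase of dividing cells, rose 1.59-fold, while Xrcc1 fell from 154 ± 6.14 CPM in DKO to 103 ± 5.66 CPM in TKO and Ercc5 1.70-fold. Mgmt, which reverses alkylation of guanine, had no count in DKO and 5.86 to 6.06 CPM in TKO, at least 292-fold higher.

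Chromatin genes changed little as groups, with clear single changes. Uhrf1 and Dnmt1, which copy DNA methylation at replication, rose 1.53- and 1.25-fold, and Dnmt3b, which sets it anew, fell from 24.6, 25.4 and 25.1 CPM in DKO to 12.8, 13.6 and 12.8 CPM in TKO (log2 difference -0.94 ± 0.06 SE, adjusted p = 3.75e-09). Mbd2, a reader of methylated DNA on chromosome 18, rose from 166 ± 5.44 CPM in DKO to 415 ± 29.6 CPM in TKO, and Mbd4, a repair glycosylase on chromosome 6, from 19.1 ± 0.874 CPM in DKO to 43.5 ± 1.503 CPM in TKO. Of the Polycomb genes 13 of 36 rose and 9 fell, none by 2-fold, and Ezh2, the methyltransferase, rose 1.08-fold. Nsd1, which methylates lysine 36 of histone H3, was measured at 56.6, 63.4 and 59.0 CPM in the DKO libraries and 145, 153 and 140.4 CPM in TKO (log2 difference 1.29 ± 0.05 SE, adjusted p = 9.52e-12). Chd7, a remodeller, rose from 14.1 ± 0.674 CPM in DKO to 75.3 ± 6.43 CPM in TKO (log2 difference 2.42 ± 0.07 SE, adjusted p = 6.17e-13), and Smarca4, the main SWI/SNF ATPase, fell 1.24-fold. Of the homeobox cluster genes only Hoxb3 to Hoxb7 passed the filter, and all 5 fell. Hoxb4, a gene of blood stem cells, was measured at 6.07, 5.84 and 5.84 CPM in the DKO libraries and 2.20, 2.32 and 2.25 CPM in TKO (log2 difference -1.39 ± 0.12 SE, adjusted p = 9.38e-08). The other 4 were under 3 CPM in DKO. Over the TKO group, Hoxb7 had 6 counts, Hoxb3 21 and Hoxb5 24. Such genes passed the filter mainly through DKO, which favours falls. In the 314 zinc finger protein genes, 74 rose and 132 fell, with a median of -0.08. Some were silent in 1 line only, such as Zfp827, with no count in DKO and 29.9 to 31.6 CPM in TKO.

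Among genes expressed at 10 CPM or more in both lines, the largest falls outside the lists were those of Klhdc2, Tenm4, Nrxn2, Gja1, Ube2a and Wdfy3, and the largest rises those of Map3k5, Crhbp, Ogfrl1, Igfbp4, Tspoap1 and Akr1c13. Klhdc2, a substrate receptor of a ubiquitin ligase, was measured at 769, 779.9 and 783 CPM in the DKO libraries and 44.7, 45.7 and 44.2 CPM in TKO (log2 difference -4.12 ± 0.04 SE, adjusted p = 1.02e-16). Ube2a, a ubiquitin-conjugating enzyme of the DNA damage response, fell from 428 ± 4.59 CPM in DKO to 49.5 ± 2.64 CPM in TKO, and Gja1, the gap junction protein connexin 43, from 304 ± 1.74 CPM in DKO to 35.1 ± 1.37 CPM in TKO. Tenm4 and Nrxn2, adhesion genes best known in neurons, fell 14.6- and 9.15-fold. Map3k5 (ASK1), a kinase of oxidative stress signalling, was measured at 13.7, 13.9 and 13.4 CPM in the DKO libraries and 68.2, 63.9 and 66.1 CPM in TKO (log2 difference 2.27 ± 0.05 SE, adjusted p = 2.24e-14), and Igfbp4, which binds insulin-like growth factors, rose from 11.6, 10.1 and 12.01 CPM in DKO to 52.2, 45.3 and 53.2 CPM in TKO. None of these had overlapping libraries.

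Position on the chromosomes marked some of the differences. Of 315 tested genes on chromosome 18, TKO had 233 higher and 44 lower. Their median log2 difference was 0.53, and 0.61 in low glucose, where 74.6% of all genes were called either way. The shift ran the length of the chromosome: of 12 windows of 25 consecutive tested genes, 11 had medians between 0.36 and 0.67 and the lowest 0.22. Of 457 windows elsewhere, 1 reached 0.3. All 4 tested genes of chromosome Y were lower in TKO, with Ddx3y, an RNA helicase gene, at 149, 151 and 156 CPM in the DKO libraries and 0.169, 0.118 and 0.261 CPM in TKO (log2 difference -9.65 ± 0.27 SE, adjusted p = 6.09e-17). The TKO libraries were close to 0 for this gene and far from every DKO library. The number of copies of these chromosomes was not tested. Leaving chromosome 18 out changed the median of the mitosis list from 0.26 to 0.25 and that of the unfolded protein response not at all, since no member lies there. Against the direction of its chromosome, the cluster of beta and gamma protocadherins, adhesion genes of which single cells use a few, had 12 of 24 tested genes lower and 10 higher. Pcdhgc3 was measured at 0.0451, 0.0206 and 0.0366 CPM in the DKO libraries and 69.3, 80.9 and 66.8 CPM in TKO (log2 difference 10.93 ± 0.87 SE, adjusted p = 1.02e-14), whereas Pcdhgb7 fell from 8.003 ± 0.295 CPM in DKO to 0.658 ± 0.247 CPM in TKO and Pcdhb22 from 4.79 ± 0.211 CPM in DKO to 0.768 ± 0.0702 CPM in TKO. Gamma protocadherins share their last exons, so reads could be split among them and these values are uncertain.

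Elsewhere, genes near each other fell together in some places, picked out after their values were seen. In the lowest of those windows, chr3:40846970-53863830, 20 of 25 genes fell and none rose, with a median of -0.58. Lhfp fell there from 51.6 ± 1.39 CPM in DKO to 0.212 ± 0.0425 CPM in TKO, Maml3, a co-activator of Notch, from 122.97 ± 0.677 CPM in DKO to 32.9 ± 3.40 CPM in TKO, and Setd7, a lysine methyltransferase, from 308 ± 1.58 CPM in DKO to 150.5 ± 5.70 CPM in TKO, while Jade1 fell 2.34-fold. The next lowest window, at chr11:88068279-94321988, had 16 of 25 genes lower and 5 higher. It holds Pctp, a lipid transfer gene, which went from 86.9, 86.2 and 89.4 CPM in DKO to 0.102, 0.118 and 0.261 CPM in TKO (log2 difference -9.04 ± 0.29 SE, adjusted p = 1.02e-16). From Ruvbl2 to Nucb1, a stretch of 6 tested genes that includes Bax itself, at chr7:45461697-45466898, 4 genes fell and 1 rose. Gys1, the muscle glycogen synthase, was measured at 33.7, 31.5 and 31.8 CPM in the DKO libraries and 4.71, 6.13 and 5.67 CPM in TKO (log2 difference -2.56 ± 0.09 SE, adjusted p = 1.74e-12), and Ruvbl2 fell 1.92-fold. Dhdh, on the other side of Bax, rose from 0.0794 ± 0.0707 CPM in DKO to 16.4 ± 2.62 CPM in TKO (log2 difference 7.71 ± 0.70 SE, adjusted p = 1.12e-11), and its neighbour Nucb1 was not called (-0.10). Among 11 tested genes around and including Klhdc2, 6 fell and 1 rose, with a median of -0.25. This called share was close to the 61.7% of all genes, of which 33.4% fell and 28.3% rose. Falls of at least 2-fold there were 3, those of Klhdc2 itself, Dnaaf2 and Pole2. Dnaaf2, a factor for assembling ciliary motors, was measured at 254, 251 and 256 CPM in the DKO libraries and 31.5, 30.9 and 30.6 CPM in TKO (log2 difference -3.03 ± 0.05 SE, adjusted p = 7.50e-16). Where such neighbours belong to a list above, as Ftl1 and Pole2 do, the part of their position in the difference was not tested.

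**Figure D5:**
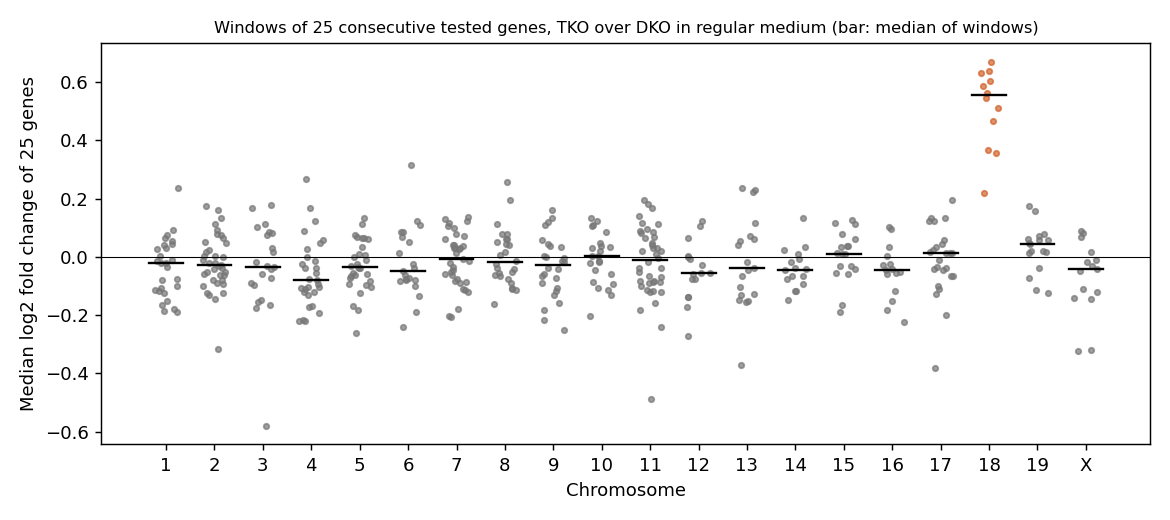
Median log2 fold change of TKO over DKO for each window of 25 consecutive tested genes (points), by chromosome, with bars for the median of the windows. The 12 windows of chromosome 18, in colour, all lie above 0.2, while 7 windows elsewhere lie at -0.3 or below.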

How the data were processed

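RNA-seq of the 12 libraries was deposited by the authors as a table of raw read counts per gene. Per the submitters' processing notes, STAR 2.7.3a, DESeq2 1.22.1 and the build mm10 were used. The strand setting of the counting is not given in the sources used here, so reads of genes that overlap, on either strand, cannot be told apart. The authors also deposited TPM values, used here for levels between genes, and a table of their own comparison with log2 fold changes, p-values and a test score, which was used only to set calls side by side: of 15824 genes in the authors' deposited table, 7438 had an adjusted p under 0.05, and 6918 were called in both, all with the same sign. Of 24982 symbols, 24498 were matched to GENCODE gene models of GRCm38, 355 to RefSeq symbols and 60 to RefSeq synonyms, and 69 were not matched.

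Counts were filtered with filterByExpr (minimum count 10, total 15), scaled with TMM and fitted with edgeR 4.0.16 in R 4.3.3 as 1 model of 4 group means over 12 libraries (8 residual degrees of freedom). The quasi-likelihood test was adjusted over all 11988 genes. Fitting scripts were tested on simulated data. A fold against a group without counts used a floor of 3 counts over the group, and a fold against 1 to 3 counts is given with its exact 95% interval, which covers counting error only. Alternatives were other scalings, filters, DESeq2 1.42.0, the 6 libraries alone, a replicate block and leaving out each library. All sample columns were used.

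Genes and lists were chosen with earlier results of these data known. Named by rule were the 12 largest changes each way at a mean of at least 10 CPM, genes with a 2-fold change among the 200 most abundant by TPM, and in each list its defining members and up to 3 changes each way at 5 CPM or more. Other named genes, mainly integrins, neighbours of Bax and Klhdc2, protocadherins, Ddx3y and some B-cell, interferon and Hox genes, were chosen after their values were seen. Some genes and 1 gene list are not reported here.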

Additional observations from a re-analysis of the deposited data

Results flagged for a closer look

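Whether the difference between the lines depended on the medium was tested directly (edgeR's quasi-likelihood test with Benjamini-Hochberg adjustment, 3 libraries per group). Among all genes, 29.6% passed that test. The genes given here also differed by at least 1 on the log2 scale. Both conditions held for 15 of 608 named genes (2.47%) and for 183 of all 11988 genes tested (1.53%). Each value is the log2 difference of TKO over DKO in regular medium minus that in low glucose. A positive value can therefore mean a larger rise or a smaller fall in regular medium, and a negative value the reverse.

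Positive values were found in several lymphoid genes. For Rag1 the value was 1.49 ± 0.12 SE, adjusted p = 1.24e-06, for Rasgrp1 1.42 ± 0.10 SE, adjusted p = 2.34e-07 and for Ikzf3, a lymphoid transcription factor, 1.09 ± 0.20 SE, adjusted p = 9.56e-04. Gfi1 gave 3.38 ± 1.33 SE, adjusted p = 0.00924, resting on 1 count in DKO in regular medium. Cd53, the tetraspanin, gave 1.38 ± 0.05 SE, adjusted p = 3.22e-09 and S1pr1, a sphingosine phosphate receptor of lymphocyte exit, 1.12 ± 0.09 SE, adjusted p = 1.24e-06.

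Signalling and metabolic genes with positive values were Smad3, at 1.23 ± 0.08 SE, adjusted p = 2.23e-07, Cdkn2a, an inhibitor of cyclin-dependent kinases, at 1.0035 ± 0.14 SE, adjusted p = 1.18e-04, Cth, which makes cysteine, at 1.76 ± 0.15 SE, adjusted p = 1.31e-06, and Derl3, of ER-associated degradation, at 1.63 ± 0.31 SE, adjusted p = 0.00163. Itga2b, under 1 CPM in every regular-medium library, gave 1.45 ± 0.52 SE, adjusted p = 0.0451. It was lower in TKO in both media, by a log2 difference of -0.91 in regular medium and -2.37 in low glucose. The negative values were those of Hk1, a hexokinase (-1.17 ± 0.11 SE, adjusted p = 4.07e-06), Jag2, a Notch ligand (-1.41 ± 0.42 SE, adjusted p = 0.0169), Gsn (-1.01 ± 0.17 SE, adjusted p = 5.23e-04) and Lyz2, a myeloid marker at low level (-1.05 ± 0.25 SE, adjusted p = 0.00568). The cause of these differences was not tested.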

How the results depend on the processing

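The count of 7395 called genes stayed within 1.5 times under all 14 alternatives, from 6750 to 7706, and 6536 to 7342 of the calls were shared, none with the opposite sign. Leaving out 1 library gave 6750 to 7217 calls. The share of calls that were higher was 45.9%, and 45% to 54.6% under the alternatives: DESeq2 size factors gave 3935 higher and 3524 lower, upper-quartile scaling 3972 and 3510, DESeq2 3938 and 3525, and no filter on low counts 4209 and 3497. Replicate numbers do not pair the samples (correlations of deviations -0.043, 0.007 and 0.047 over 8421 genes), and a replicate block gave 7542 calls. Of 8502 values for 608 named genes, 8326 kept direction and side of the threshold, 124 lost the call, 52 gained it and none reversed. Of 81 list medians, 13 moved by less than the spread between replicates under every alternative, and 341 of their 1133 values moved by more. For 17 lists the median changed sign under at least 1 alternative, each from a size of at most 0.0546. Levels under 1 CPM rest on few counts, and the lower depth of TKO makes its low levels less precise.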
